A study of Arabidopsis thaliana with 96 samples.

Results

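The endodermis is the cell layer that encloses the vascular core of the root, and it was profiled here after 20 h on medium with 140 mM NaCl and compared with the same layer on standard medium. The members are the 9 endodermis arrays with those labels out of 96 arrays in the series. They comprise 3 arrays at 20 h of salt, 3 arrays after 1 h and 3 arrays after 48 h on standard medium, and each standard time carried equal weight. All 9 came from seedling roots of Arabidopsis thaliana, ecotype Columbia, 5 to 7 days after germination, of a line that carries SCR::GFP, a green fluorescent protein driven by the promoter of SCARECROW. Roots were digested to protoplasts, fluorescent cells were sorted, and their RNA was read on Affymetrix ATH1 arrays, which measure each transcript with a set of short probes. The salt medium was the standard medium with NaCl added, so both groups share the basal medium, the reporter line and the procedure of digestion and sorting; the labels do not say whether they shared a digestion or a sort. The labels give 5 days before transfer for the salt seedlings and leave that entry empty for the standard ones. The series covers 4 cell types with 8 conditions each, and every group has 3 arrays. No standard group was harvested at 20 h, and nothing in the labels ties the replicates to separate cultures, so the p-values here measure spread among arrays that may differ only technically.

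The endodermis controls what enters the vascular tissue from the soil solution. Its walls carry the Casparian strip, a lignin band that seals the space between cells, and older cells add suberin, a polyester that coats the cell surface. Peroxidases polymerise lignin, GDSL-type esterases and lipases include enzymes that build and degrade suberin, and the receptor kinase GSO1 (also known as SGN3) watches over the closure of the strip. Abscisic acid, which accumulates in roots under salt, is known to promote suberin deposition in this layer.

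Expression values are on the log2 scale, so a difference of 1 is 2-fold. The replicate arrays were less alike at 20 h of salt than on standard medium: the mean correlation of an array with the others of its group was 0.959 to 0.975 in salt, against 0.981 to 0.990 on standard medium. Array medians over all probe sets were 4.78 to 4.95 in salt and 4.63 to 4.71 on standard medium. The signal of the ubiquitin control probe sets at the 3′ end minus the 5′ end, a measure of RNA shortening, was 1.19 ± 0.050 in salt (SD, n = 3) and 1.01 ± 0.075 on standard medium (SD, n = 6). That difference gave p = 0.0119 in a two-sided exact permutation test, the smallest p that 3 against 6 arrays allow, and 0.0357 after adjustment over the 3 control transcripts. The GAPDH (p = 0.619) and actin (p = 0.19) probe sets gave no such difference by the same exact test. The part of RNA quality in the results below was not tested.

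The endodermis sort was compared with the other sorts in standard medium for markers of endodermis, cortex and root hair. GSO1 averaged 10.26 and 10.37 in endodermis at 1 h and 48 h, against 9.0 and 8.45 in cortex, 4.61 and 4.63 in epidermis and 9.16 and 8.08 in stele. AT1G61590, a receptor-like cytoplasmic kinase that acts with GSO1, averaged 12.05 at both times in endodermis, against 9.47 and 9.39 in cortex, 5.72 and 6.05 in epidermis and 10.28 and 9.73 in stele. Both were therefore highest in the endodermis sort. AT4G28100, the other tested marker, averaged 5.19 and 5.51 in endodermis, against 6.43 and 5.08 in cortex, so at 1 h it was not highest in endodermis. The cortex marker AT1G62510, from a lipid transfer protein family, averaged 9.61 and 9.62 in endodermis, against 10.11 and 10.58 in cortex. The root hair expansin EXPA7 averaged 9.59 and 8.57 in endodermis, against 10.03 and 8.29 in epidermis. Transcripts known from neighbouring layers were thus abundant in this sort before any salt. SCR itself, the sodium transporters, the aquaporins, the suberin MYB regulators and the abscisic acid lists had no gene with a probe set of its own among those tested, and are not analysed here.

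At 20 h of salt, 1776 of 7281 tested genes (24.4%) had changed in the endodermis, 948 upward (13%) and 828 downward (11.4%). A gene was called when it differed at least 2-fold with an adjusted p below 0.05 (limma across all 96 arrays, Benjamini-Hochberg adjustment). Every gene with a change of at least 1 also passed the p threshold, the highest adjusted p among them being 0.0102, so the call is in effect a call of size. Changes of at least 4-fold were seen upward in 172 genes and downward in 197, and changes of at least 16-fold in 17 and 6 genes. All 3 salt arrays lay above all 6 standard arrays for 1981 genes (27.2%) and below them for 1672 (23%), while 91 of the called genes had overlapping arrays. The split between directions depended on the scaling of the arrays: rises made up 53.4% of calls as deposited, 48.4% after quantile normalization (833 rises and 889 falls) and 39.7% with each array centred on its median (686 rises and 1041 falls). That centring moved the median change of all genes to -0.11, against 0.06 as deposited.

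The 5 largest rises were a hydroxyproline-rich glycoprotein, class III peroxidases and GDSL-type lipases. The highest was AT4G38080, the glycoprotein, at 9.75, 10.15 and 9.39 on the salt arrays, against 4.68, 3.77 and 3.94 at 1 h and 2.78, 2.69 and 2.90 at 48 h on standard medium. Its change was 6.30 ± 0.36 (SE, adjusted p = 1.61e-24 by limma), or 78.9-fold. AT1G68850, a class III peroxidase, stood at 8.88, 9.26 and 7.89 in salt, against 3.21, 3.26 and 3.09 at 1 h and 2.99, 3.06 and 2.86 at 48 h on standard medium. It rose by 5.60 ± 0.26 (adjusted p = 9.01e-29 by limma), and for both genes every salt array stood far above every standard array. Their standard levels were below the array medians, where the files give no detection calls, so these fold changes depend on how the low values were modelled.

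Of 4 tested GDSL lipases on the barrier list, which was drawn up with earlier results of these data known, 3 rose and 1 fell. Over all tested genes 13% were called higher and 11.4% lower. AT2G23540 stood at 8.01, 8.42 and 7.13 in salt, against 2.84, 2.61 and 2.83 at 1 h and 2.48, 2.36 and 2.70 at 48 h on standard medium, a change of 5.22 ± 0.22 (adjusted p = 4.17e-31 by limma). AT3G50400 stood at 8.57, 9.25 and 8.67 in salt, against 4.22, 5.95 and 4.52 at 1 h and 3.31, 3.08 and 3.26 at 48 h on standard medium, a change of 4.78 ± 0.31. The lowest salt array of each was above the highest standard array. AT1G74460 stood at 8.80, 8.98 and 7.79 in salt, against 4.95, 4.25 and 4.70 at 1 h and 3.92, 3.64 and 3.66 at 48 h on standard medium, a change of 4.34 ± 0.22. AT2G19050, the member that fell, averaged 2.96 ± 0.23 in salt (SD, n = 3) and 4.09 ± 0.39 on standard medium (SD, n = 6), so it was low in both. Its change of -1.12 ± 0.21 was no longer 2-fold without salt replicate 3 (-0.99) or against the 48 h standard arrays alone (-0.86). AT2G48130, a lipid transfer protein and the tested member of the list of suberin synthesis and export, was already high: it stood at 9.82, 10.06 and 9.60 in salt, against 8.53, 8.64 and 8.38 at 1 h and 8.16, 8.09 and 8.13 at 48 h on standard medium. It rose by 1.50 ± 0.16 (adjusted p = 2.6e-12 by limma).

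**Figure D1:**
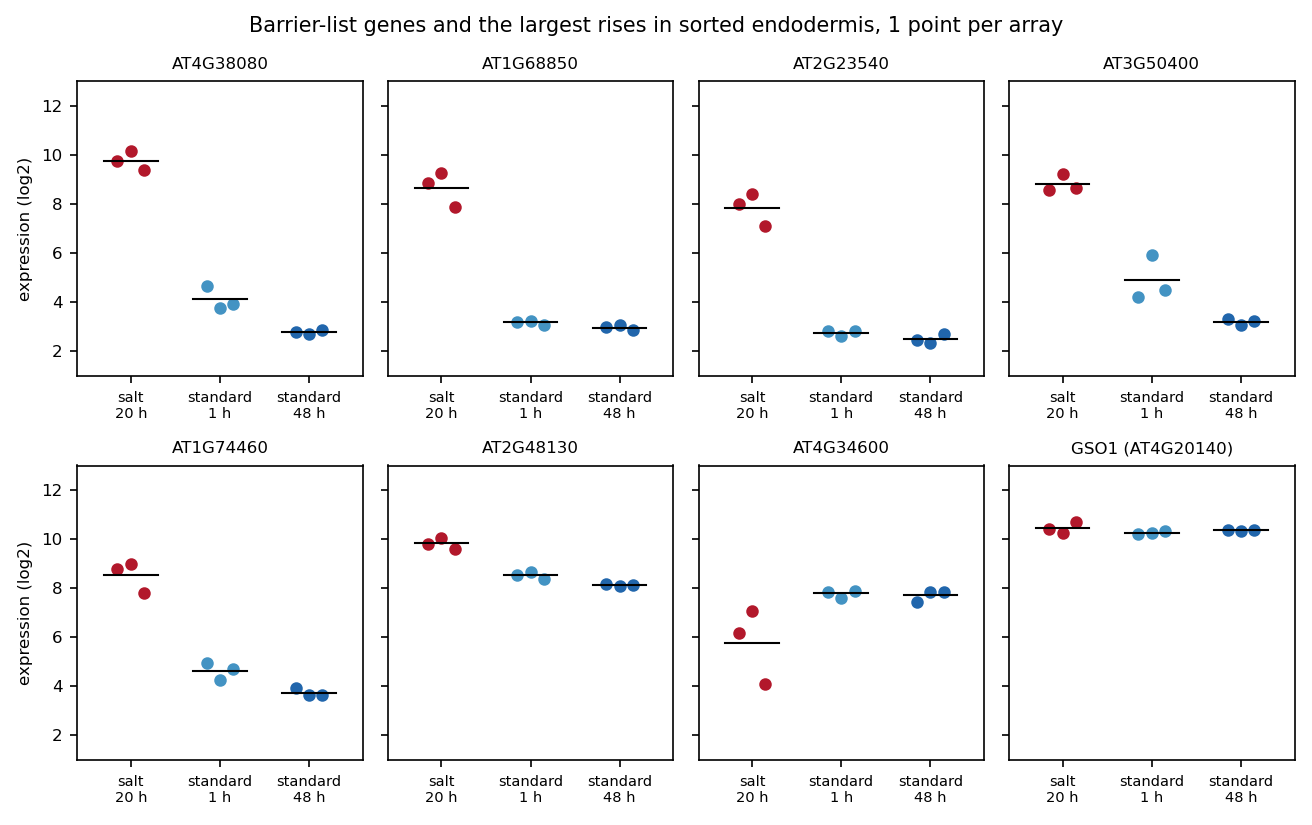
Expression (log2) of 8 genes on each endodermis array, 1 point per array and a line at each group mean, with salt 20 h on the left and standard medium at 1 h and 48 h to its right. AT4G38080, AT1G68850, AT2G23540, AT3G50400 and AT1G74460 sat above 7 on every salt array and below 6 on every standard array, GSO1 stayed between 10.20 and 10.70 throughout, and AT4G34600 was spread from 4.10 to 7.08 in salt.

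Of 16 genes on the Casparian strip list 3 were tested, GSO1, AT1G61590 and AT4G34600. None was called higher and 1 was called lower, beside 13% of all tested genes called higher and 11.4% lower. So few genes cannot be set apart from those shares. The rest of the list has no tested value, so these genes do not describe the strip machinery as a whole. GSO1 averaged 10.45 ± 0.22 in salt (SD, n = 3) and 10.32 ± 0.07 on standard medium (SD, n = 6), a difference of 0.14 with a 95% interval of -0.26 to 0.54 that missed the threshold (adjusted p = 0.559 by limma) and turned to -0.04 when arrays were centred on their medians. AT1G61590 averaged 11.85 ± 0.03 in salt and 12.05 ± 0.13 on standard medium, a difference of -0.20 with an interval of -0.70 to 0.30 (adjusted p = 0.486 by limma). AT4G34600, which encodes the precursor of a peptide ligand of GSO1, stood at 6.17, 7.08 and 4.10 in salt, against 7.85, 7.61 and 7.90 at 1 h and 7.44, 7.85 and 7.83 at 48 h on standard medium. It fell by 1.97 ± 0.31 (adjusted p = 1.44e-07 by limma), and by 1.12 without salt replicate 3, which was the lowest array. The marker AT4G28100 rose by 1.10 ± 0.20, with overlapping arrays, and by 0.68, below the threshold of size, without that same replicate. It also lost the call under both other scalings, against the 48 h standard arrays alone and without 48 h standard replicate 2.

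Class III peroxidases moved both ways. Of 40 tested, 13 rose, 11 fell and 16 were not called, with a median change of -0.11, against 0.06 over all genes. Among all tested genes 13% were called higher and 11.4% lower. After AT1G68850 the largest rises were AT4G08780 and PRX52, a peroxidase linked to lignin in stems. AT4G08780 stood at 9.75, 9.79 and 9.29 in salt, against 5.20, 4.44 and 4.79 at 1 h and 4.21, 4.36 and 4.54 at 48 h on standard medium, a change of 5.02 ± 0.25. PRX52 averaged 8.13 ± 0.84 in salt (SD, n = 3) and 3.65 ± 1.08 on standard medium (SD, n = 6), and its change was 4.48 ± 0.28 (adjusted p = 1.16e-22 by limma). The largest fall was AT5G15180, at 4.78, 5.13 and 3.91 in salt, against 9.0, 8.24 and 8.51 at 1 h and 8.97, 8.63 and 8.59 at 48 h on standard medium, a change of -4.05 ± 0.26. The 3 largest rises in this family were thus larger than its largest fall, and the array ranges did not overlap for these 4 genes.

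Among β-glucosidases and UDP-glycosyltransferases, some of the called genes act on glucosides of lignin precursors. BGLU45, a β-glucosidase that frees monolignols from their glucosides, stood at 7.88, 7.98 and 7.42 in salt, against 3.88, 4.27 and 3.89 at 1 h and 3.23, 3.47 and 3.40 at 48 h on standard medium, a rise of 4.07 ± 0.24. BGLU46, with the same activity, averaged 9.65 ± 0.28 in salt and 8.38 ± 0.17 on standard medium, a rise of 1.27 ± 0.23. Of the 3 tested glucosyltransferases of the UGT72E group, which make such glucosides, both UGT72E2 and UGT72E3 fell and UGT72E1 was not called (change -0.29, adjusted p = 0.337 by limma). UGT72E1 was low in both groups, at 3.38 in salt and 3.67 on standard medium, which left little room for a fall. UGT72E2 averaged 7.18 ± 0.39 in salt and 9.04 ± 0.24 on standard medium, and UGT72E3 averaged 6.65 ± 0.40 in salt and 8.51 ± 0.20 on standard medium. The changes of UGT72E2 and UGT72E3 were -1.86 ± 0.15 and -1.85 ± 0.18, with no overlap between groups. Over the whole families, 5 of 12 tested β-glucosidases rose and 1 fell, and 5 of 36 tested UDP-glycosyltransferases rose and 7 fell, beside 13% of all tested genes called higher and 11.4% lower. The UDP-glycosyltransferase counts lie near that background, and the falling β-glucosidases numbered 3 with arrays centred on their medians or against the 48 h standard arrays alone, and 0 against the 1 h arrays alone or without either salt replicate 3 or 1 h standard replicate 1. The biosynthetic enzymes HCT and CCR2, the tested members of the lignin pathway, had changes of 0.34 and 0.80 and were not called.

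The rest of the 12 largest rises included stress and defence genes. AT4G38410, a dehydrin, which is a hydrophilic protein of drying tissue, stood at 9.86, 9.47 and 10.26 in salt, against 5.37, 5.12 and 5.03 at 1 h and 5.40, 4.65 and 5.28 at 48 h on standard medium. It rose by 4.72 ± 0.21 (adjusted p = 1e-29 by limma). JRG21, a dioxygenase that inactivates jasmonate, stood at 7.43, 7.47 and 7.32 in salt, against 3.19, 2.48 and 2.65 at 1 h and 3.29, 3.11 and 2.65 at 48 h on standard medium, a rise of 4.51 ± 0.35. AT1G26380, a berberine bridge enzyme-like oxidase, rose by 4.57 ± 0.41, AT3G54150 by 4.63 ± 0.28 and AT1G73620, a thaumatin-like protein, by 4.26 ± 0.35. AT1G73620 had the widest salt arrays of these, at 7.86, 6.73 and 9.42. Outside the 12 largest, AER, an alkenal reductase that detoxifies lipid peroxidation products, rose by 3.47 ± 0.28.

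The late embryogenesis abundant (LEA) and dehydrin list did not move as a block. Beside 13% of all tested genes called higher and 11.4% lower, 4 of 13 tested members rose and 2 fell. The other 7 were not called, and all 7 of those had negative changes. With arrays centred on their medians 4 fell. DI21, a drought-induced member, averaged 10.23 ± 0.23 in salt and 7.69 ± 0.22 on standard medium, a rise of 2.54 ± 0.21. LEA4-5 went the other way, at 8.85, 8.63 and 9.46 in salt, against 11.11, 10.96 and 10.90 at 1 h and 10.99, 11.92 and 12.03 at 48 h on standard medium, a change of -2.34 ± 0.25 (adjusted p = 1.83e-12 by limma). AT3G15670, a LEA family protein outside the list, was lower still against its standard level: it stood at 4.16, 2.84 and 4.01 in salt, against 7.28, 5.92 and 6.72 at 1 h and 8.33, 9.18 and 9.09 at 48 h on standard medium. Salt arrays lay below every standard array for both genes.

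All 4 tested heat shock genes were called higher, but with wide and overlapping arrays. ATHSP22.0, a small chaperone, stood at 8.07, 8.70 and 5.05 in salt, against 5.27, 4.03 and 4.72 at 1 h and 3.67, 3.92 and 4.05 at 48 h on standard medium, a change of 3.00 ± 0.47. AT1G53540, a cytosolic small heat shock protein, stood at 9.06, 9.80 and 6.59 in salt, against 7.65, 5.86 and 6.84 at 1 h and 3.93, 4.56 and 4.68 at 48 h on standard medium, a change of 2.90 ± 0.59. Salt replicate 3 was the lowest salt array for both and fell within the standard range. AT2G29500, another member, was not called against the 1 h standard arrays alone (change 0.81, adjusted p = 0.142 by limma), while the changes of ATHSP22.0, AT1G53540 and AT5G37670 were. Of 10 tested genes of the hypoxia list, whose members respond to low oxygen, 5 rose and none fell. The other 5 had positive changes that were not called. Over all tested genes 13% were called higher and 11.4% lower. Of the called rises, AT1G19530 (4.43 in salt, 2.72 on standard medium), AT4G10270 (4.25 and 3.24) and AT4G33560 (4.68 and 3.62) were low in both. Their means here were below the filter of 5, which they passed through other groups of the series. The rises numbered 3 after quantile normalization, with arrays centred on their medians, or without salt replicate 1. AT4G33560, at 1.07 ± 0.25, was among the calls lost in each case. The largest was AT4G24110, at 8.55 ± 0.11 in salt and 6.24 ± 0.45 on standard medium, a rise of 2.31 ± 0.17.

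Wall-modifying proteins were among the 12 largest falls. EXPB1, a β-expansin, a class of proteins that loosen the wall, stood at 4.69, 4.48 and 4.15 in salt, against 8.61, 8.96 and 8.51 at 1 h and 9.14, 8.64 and 8.58 at 48 h on standard medium. It fell by 4.30 ± 0.28 (adjusted p = 1.12e-21 by limma). XTH21, a xyloglucan endotransglucosylase that cuts and rejoins hemicellulose, stood at 3.27, 3.64 and 3.48 in salt, against 7.36, 7.44 and 7.41 at 1 h and 7.76, 7.21 and 7.08 at 48 h on standard medium, and fell by 3.91 ± 0.22. XTH21 was the sole called member of 9 tested, and 2 members were lower with arrays centred on their medians, against the 48 h standard arrays alone, or without any 1 of salt replicates 1 and 2 and replicate 1 of each standard time. Of 12 tested expansins, 5 fell and 3 rose, beside 11.4% of all tested genes called lower and 13% higher. The rises included EXPA4 (2.38 ± 0.21) and EXLA3 (2.35 ± 0.19), so the family did not share a direction.

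Extensins, wall glycoproteins that cross-link into a rigid net, were more uniform. Of 7 tested, 6 fell and none rose, with a median change of -1.38, beside 11.4% of all tested genes called lower and 13% higher. AT3G28550 averaged 5.92 ± 0.45 in salt (SD, n = 3) and 8.77 ± 0.18 on standard medium (SD, n = 6), a fall of 2.86 ± 0.39 (adjusted p = 2.09e-09 by limma), and AT1G23720 fell by 2.42 ± 0.30. Trichome birefringence-like genes, which acetylate wall polysaccharides, gave 5 falls and no rise among 17 tested, although 2 rises were called against the 1 h standard arrays alone and 1 without salt replicate 2, 1 h standard replicate 1 or 48 h standard replicate 2. The largest of these was TBL21, at 3.82 ± 0.60 in salt and 7.68 ± 0.42 on standard medium, a fall of 3.86 ± 0.35. Of 7 tested tubulins, TUB1 and TUA6 fell (changes of -1.39 ± 0.24 and -1.13 ± 0.16) and none rose. TUA6 was not called against the 1 h standard arrays alone (-0.95) or without salt replicate 2 (-0.92), and 4 tubulins fell against the 48 h arrays alone.

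Auxin genes fell or were not called. Of 7 tested members of the auxin list, 3 fell, IAA29, IAA30 and WES1, beside 11.4% of all tested genes called lower. Of the 4 members not called, 3 had positive changes. The family of Aux/IAA repressors, SAUR proteins and GH3 conjugating enzymes, of which 8 were tested, shares genes with that list. Its 4 falls were the same 3 genes and GH3.17. IAA30 averaged 6.27 ± 0.39 in salt and 9.27 ± 0.71 on standard medium, a fall of 3.00 ± 0.29 (adjusted p = 1.5e-14 by limma). WES1, a GH3 enzyme that conjugates auxin to amino acids, averaged 6.18 ± 0.47 in salt and 8.61 ± 0.34 on standard medium, a fall of 2.42 ± 0.27. WAG2, a protein kinase that steers auxin efflux carriers, stood at 3.82, 3.60 and 4.05 in salt, against 7.38, 8.18 and 7.61 at 1 h and 8.39, 7.55 and 7.60 at 48 h on standard medium. It fell by 3.96 ± 0.27, with no overlap. Among regulators, tny (TINY), a transcription factor of the AP2/ERF class, fell by 3.95 ± 0.25.

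**Figure D2:**
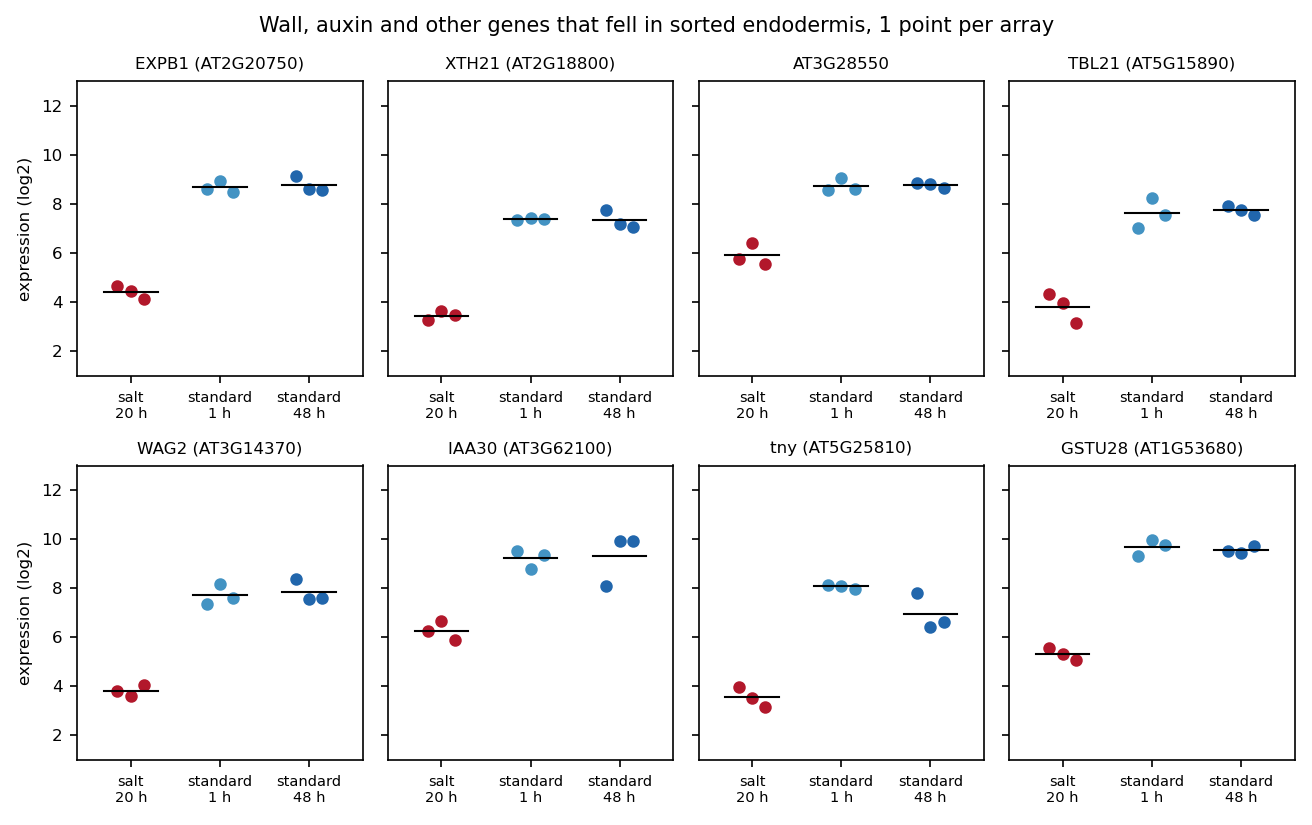
Expression (log2) of 8 genes that fell, on each endodermis array, with salt 20 h on the left and standard medium at 1 h and 48 h to its right, and a line at each group mean. The 3 salt arrays of EXPB1, XTH21, TBL21, WAG2, IAA30, tny, GSTU28 and AT3G28550 lay below all 6 standard arrays.

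Conjugating enzymes were also among the 12 largest falls. GSTU28, a tau glutathione transferase, stood at 5.56, 5.30 and 5.07 in salt, against 9.33, 9.98 and 9.76 at 1 h and 9.54, 9.45 and 9.71 at 48 h on standard medium, and fell by 4.32 ± 0.36. In its class, 2 of 7 tested members fell and 1 rose, beside 11.4% of all tested genes called lower and 13% higher. UGT71C1, a UDP-glycosyltransferase, fell by 3.89 ± 0.31. The remaining large falls were AT3G21340, a leucine-rich repeat receptor kinase (-4.52 ± 0.23), AT2G43890, a pectin lyase-like protein (-3.96 ± 0.33), and AT2G02680 (-3.91 ± 0.23). AT3G21340 stood at 2.37, 2.43 and 2.06 in salt, against 6.25 or more on every standard array.

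Of 3 tested cell cycle genes PRL, a subunit of the replicative helicase, rose by 1.66 ± 0.24 and AUR1, a mitotic kinase, by 1.06 ± 0.22, and AUR2, another mitotic kinase, was not called (change -0.25). The histone H2B genes HTB4 and HTB2 rose by 1.04 ± 0.13 and 1.02 ± 0.27, out of 4 histone genes tested, and HTB1 and HTB11 were not called. AUR1 and HTB2 were no longer 2-fold higher after quantile normalization, and AUR1, HTB4 and HTB2 were not with arrays centred on their medians. AUR1 and HTB2 also lost the call without salt replicate 3 or without 1 h standard replicate 2. AT5G38710, a proline dehydrogenase and the tested gene of proline metabolism, averaged 6.42 ± 0.64 in salt and 4.43 ± 0.41 on standard medium, a rise of 1.99 ± 0.27. Of 7 tested genes of calcium sensing 3 rose, CML23 fell (-1.69 ± 0.19) and 3 were not called. Among all tested genes 13% were called higher and 11.4% lower. CML38, a calmodulin-like calcium sensor, rose by 1.54 ± 0.21.

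**Figure D3:**
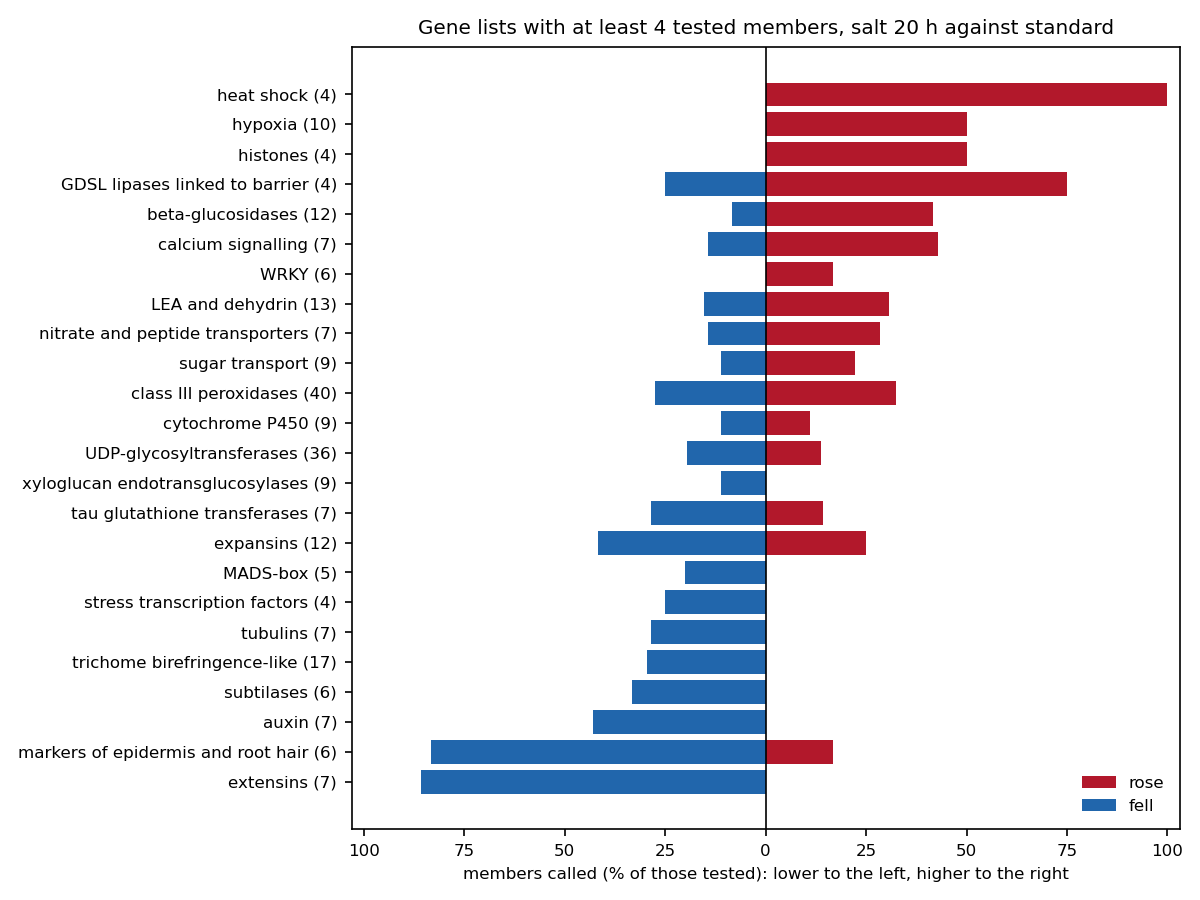
Share of tested members (%) called higher (red, to the right) and lower (blue, to the left) at 20 h of salt for each list with at least 4 tested members, whose number stands in brackets. Over all tested genes 13% were called higher and 11.4% lower; extensins had 6 of 7 members lower and class III peroxidases had 13 of 40 higher and 11 of 40 lower.

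Markers of neighbouring tissues changed beside these groups. Both tested cortex markers fell, beside 11.4% of all tested genes called lower. AT1G62510 stood at 5.05, 5.84 and 3.64 in salt, against 9.10 to 10.13 on standard medium, a change of -4.78 ± 0.35, and the change of AT1G09750 was -1.88 ± 0.16. The difference of AT1G62510 from the mean response of the other cell types was -2.03, smaller than its change. It therefore also fell on average in the other sorts. The part of a salt response of the markers themselves was not tested. The mean level of the 2 cortex markers was 3.45 to 4.96 over the salt arrays and 7.32 to 8.03 over the standard arrays. Of 6 root hair markers, 5 fell, including EXPA7 (-3.03 ± 0.40), and the peroxidase AT1G34510 rose by 1.82 ± 0.51. Against the 48 h standard arrays alone 2 of them fell. Their mean level was 6.87 to 7.43 in salt and 7.28 to 9.32 on standard medium, so these ranges overlapped. LHW, the 1 tested stele marker of 21 listed, rose by 1.46 ± 0.17, with levels of 5.65 to 6.25 in salt and 4.16 to 4.78 on standard medium. Its level was not compared with that in the stele sort. The 3 tested endodermis markers, of 13 listed, averaged 9.32 to 9.96 in salt and 9.12 to 9.36 on standard medium. Of these, AT4G28100, which was not highest in the endodermis sort at 1 h on standard medium, rose by 1.10. GSO1 (0.14) and AT1G61590 (-0.20) were not called. The part of carried-over or neighbouring cells in the falls of wall and peroxidase genes was not tested, and in sorted bulk RNA fewer cells of a type cannot be told apart from less RNA per cell.

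The same salt time was set against standard medium in the other sorts, each with its own control arrays, to ask how much of the response other cell types share. At 20 h, 1760 genes were called in epidermis (24.2%; 13.9% higher and 10.3% lower), 1601 in cortex (22%; 12.1% higher and 9.86% lower) and 873 in stele (12%; 5.04% higher and 6.95% lower). Of the endodermis rises, 654 were also called higher in cortex, which is 69% of the endodermis list and 74.1% of the cortex list. The epidermis shared 566 rises (59.7% of the endodermis list and 56% of its own) and the stele 228 (24.1% and 62.1%). Falls were shared with cortex for 452 genes (54.6% and 63%), with epidermis for 422 (51% and 56.3%) and with stele for 302 (36.5% and 59.7%). In all 3 other types 134 rises and 206 falls were called as well, and 178 rises and 240 falls were called in none of them. The dehydrin AT4G38410 was among the shared rises, with changes of 4.72 in endodermis, 3.70 in epidermis, 3.39 in cortex and 3.19 in stele. A gene called in endodermis and in no other type is not thereby shown to differ, which was tested directly.

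The endodermis response differed from the mean response of the other 3 cell types for 630 genes (8.65%), being more positive for 326 (4.48%) and more negative for 304 (4.18%). Each cell type has its own reporter line and sorts, so effects of the line or the sort and effects of the cell type cannot be told apart. The 5 largest positive differences were all genes described above, the glycoprotein AT4G38080, the peroxidase AT1G68850 and 3 GDSL-type lipases. For AT4G38080 the difference was 5.72 ± 0.41 (adjusted p = 1.61e-18 by limma), from a change of 6.30 in endodermis, 0.16 in epidermis, 0.28 in cortex and 1.30 in stele. AT1G68850 differed by 5.16 ± 0.30, with a change of 5.60 in endodermis and 1.30 in stele, and AT2G23540 by 5.02 ± 0.25, with 5.22 in endodermis and 0.13 to 0.29 in the other types. AT3G50400 differed by 4.28 ± 0.35 and AT1G74460 by 4.18 ± 0.25. For none of these 5 did the change in epidermis or cortex reach 0.30 in size. The stele shared part of the rise: AT3G50400 changed there by 1.21 and AT1G74460 by 0.625. Called rises in stele included those of AT1G68850 and AT3G50400, while that of AT1G74460 was below the threshold of size. AT2G48130 differed by 2.18 ± 0.19, as it rose in endodermis (1.50) while its changes were 0.10 in epidermis, -1.61 in cortex and -0.53 in stele.

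For the strip regulators the difference came from negative changes in the other cell types. GSO1 changed by 0.14 in endodermis, -1.10 ± 0.20 in epidermis, -1.89 ± 0.20 in cortex and -0.80 ± 0.20 in stele, and the difference was 1.40 ± 0.23 (adjusted p = 2.25e-06 by limma). In epidermis GSO1 was already low on standard medium, as given above, so its fall there was between low values. AT1G61590 changed by -0.20 in endodermis, -1.79 ± 0.25 in epidermis, -2.01 ± 0.25 in cortex and -0.82 ± 0.25 in stele, a difference of 1.33 ± 0.29. The falls in epidermis and cortex were called and those in stele were not. AT4G34600, the ligand precursor, differed in the negative direction, by -1.23 ± 0.36 (adjusted p = 0.00598 by limma). Its changes were -1.97 in endodermis, -1.52 in cortex, -0.57 in epidermis and -0.10 in stele. The fall in cortex was also called, and without salt replicate 3 the change in endodermis was -1.12. In epidermis it was low already on standard medium, at 3.10 and 3.74. The marker AT4G28100 differed by 1.19 in the positive direction.

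The 5 most negative differences were those of LEA4-5, AT4G27450, AT3G15670, TBL21 and GSTU28. LEA4-5 differed by -3.02 ± 0.29 (adjusted p = 4.27e-13 by limma), with changes of -2.34 in endodermis, 1.99 in epidermis, -0.18 in cortex and 0.23 in stele. AT4G27450, a hypoxia list member, differed by -3.01 ± 0.41, with changes of 0.40 in endodermis, 5.04 in epidermis, 2.56 in cortex and 2.65 in stele. It was called higher in the 3 other types and not in endodermis, where it averaged 7.50 ± 0.55 in salt and 7.10 ± 0.62 on standard medium. AT3G15670 differed by -2.91 ± 0.36, TBL21 by -2.71 ± 0.40 and GSTU28 by -2.57 ± 0.42, and all 3 had fallen further in endodermis than in any other type by the fitted values. IAA30 (-2.40) and WES1 (-2.21) also differed, with changes outside the endodermis between -1.08 and 0.06.

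**Figure D4:**
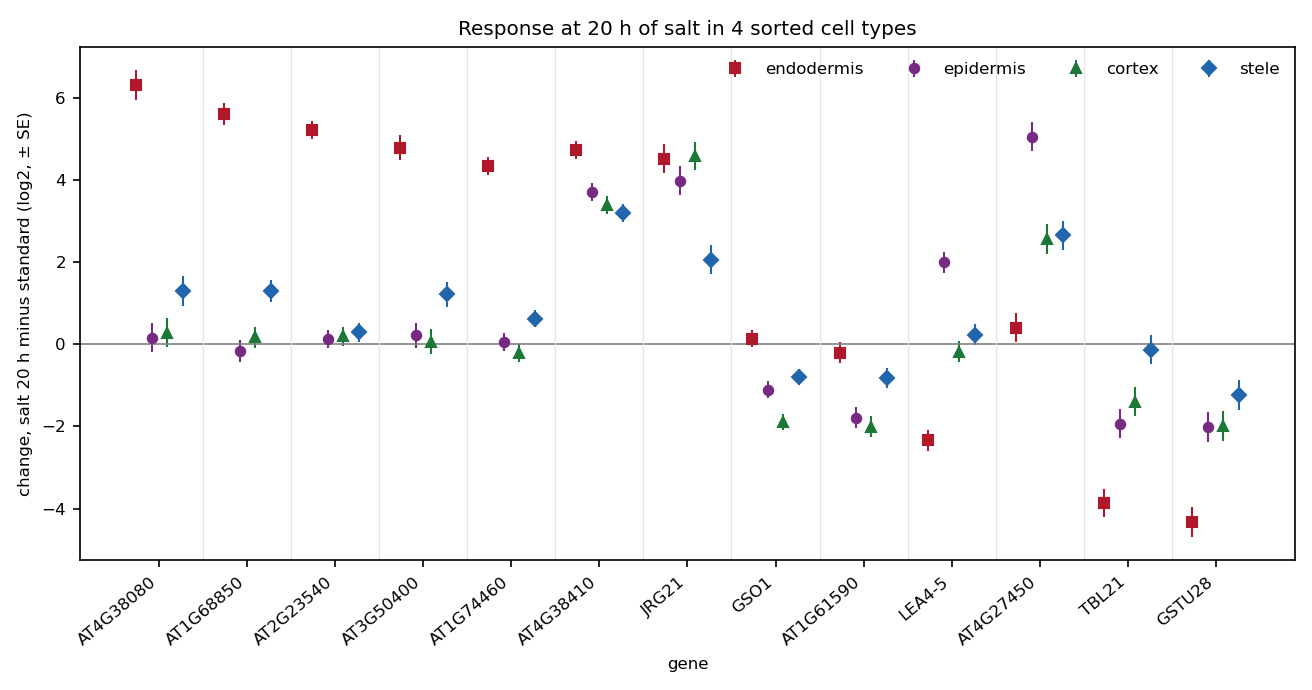
Change at 20 h of salt against standard medium (log2, points with SE) for 13 genes in endodermis, epidermis, cortex and stele, from left to right within each gene. The 5 genes on the left rose by 4.34 to 6.30 in endodermis and by at most 1.30 elsewhere, AT4G38410 and JRG21 rose in all 4 types, and GSO1 and AT1G61590 lay near 0 in endodermis and below it elsewhere.

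The 20 h point was then placed in the salt series of the endodermis. The 6 salt times share the same standard arrays, so their changes are given side by side. Between salt times, only 20 h against 8 h and 32 h against 20 h were tested directly. AT4G38080 averaged 5.15, 10.33, 10.36, 9.76, 6.45 and 6.92 at 1, 3, 8, 20, 32 and 48 h of salt. AT1G68850 averaged 4.92, 9.24, 10.09, 8.68, 5.07 and 6.03, and AT2G23540 averaged 2.69, 4.49, 7.00, 7.85, 4.11 and 3.76 at the same times. AT4G38080 and AT1G68850 thus had means above 8 from 3 h to 20 h, and AT2G23540 had its highest mean at 20 h. All 3 were lower at 32 h than at 20 h.

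Between 20 h and 8 h, 207 genes differed (2.84%), 124 higher at 20 h (1.7%) and 83 lower (1.14%). That balance depended on the scaling, with 94 higher and 100 lower after quantile normalization and 80 higher and 130 lower with arrays centred on their medians. The largest rise was AT4G11190, of the dirigent family, whose members guide the coupling of phenolic radicals, at 9.53 ± 0.46 at 20 h and 5.51 ± 0.43 at 8 h (SD, n = 3 each). Its difference was 4.02 ± 0.29 (adjusted p = 1.06e-17 by limma). AT4G11210, of the same family, differed by 2.57 ± 0.35, AT5G04120 by 2.91 ± 0.33 and the subtilase ATSBT5.2 by 2.50 ± 0.36. Relative to their standard means, AT4G11190 and AT5G04120 stood lower at 8 h (-1.80 and -1.38) and higher at 20 h (2.22 and 1.53). The largest falls were AT3G15670 (-2.57 ± 0.36), AT1G05450, a lipid transfer protein-like gene (-2.54 ± 0.39), the kinase AT5G24080 (-2.46 ± 0.23) and AT1G49000 (-2.36 ± 0.32). AT3G50400 and AT1G74460 were also lower at 20 h than at 8 h, by -1.73 ± 0.35 and -1.21 ± 0.25, and AT1G68850 by -1.42 ± 0.30. The count was 320, with 215 rises, without salt 20 h replicate 2, and in a fit of the compared arrays alone it was 67, in which AT4G11210 (adjusted p = 0.104 by limma) and ATSBT5.2 (adjusted p = 0.101) were not called.

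Between 32 h and 20 h, 147 genes differed (2.02%), of which 31 were higher at 32 h (0.426%) and 116 lower (1.59%), or 46 higher and 95 lower with arrays centred on their medians. The 4 largest falls all came from genes that had risen by 20 h. AT2G23540 averaged 4.11 ± 0.58 at 32 h and 7.85 ± 0.66 at 20 h (SD, n = 3 each), a fall of 3.74 ± 0.25 (adjusted p = 3.98e-19 by limma). AT1G68850 fell by 3.60 ± 0.30, AT2G43390 by 3.49 ± 0.36 and AT4G38080 by 3.31 ± 0.41. AT2G43390 averaged 3.13 at 32 h and 6.62 at 20 h, against 2.49 on standard medium. Their levels at 32 h remained above the standard mean by 1.48 (AT2G23540), 1.99 (AT1G68850) and 3.00 (AT4G38080), and by 0.64 for AT2G43390. The largest rises were UGT76E12 (2.05 ± 0.25), the β-glucosidases BGLU28 (1.92 ± 0.35) and BGLU40 (1.55 ± 0.20), and AT3G59370 (1.62 ± 0.35). The dehydrin AT4G38410 showed a difference of -0.28 ± 0.25 between 32 h and 20 h (adjusted p = 0.58 by limma). Without salt 20 h replicate 3 the falls numbered 181 in place of 116, and with the compared arrays alone AT3G59370 was not called (adjusted p = 0.0833 by limma).

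**Figure D5:**
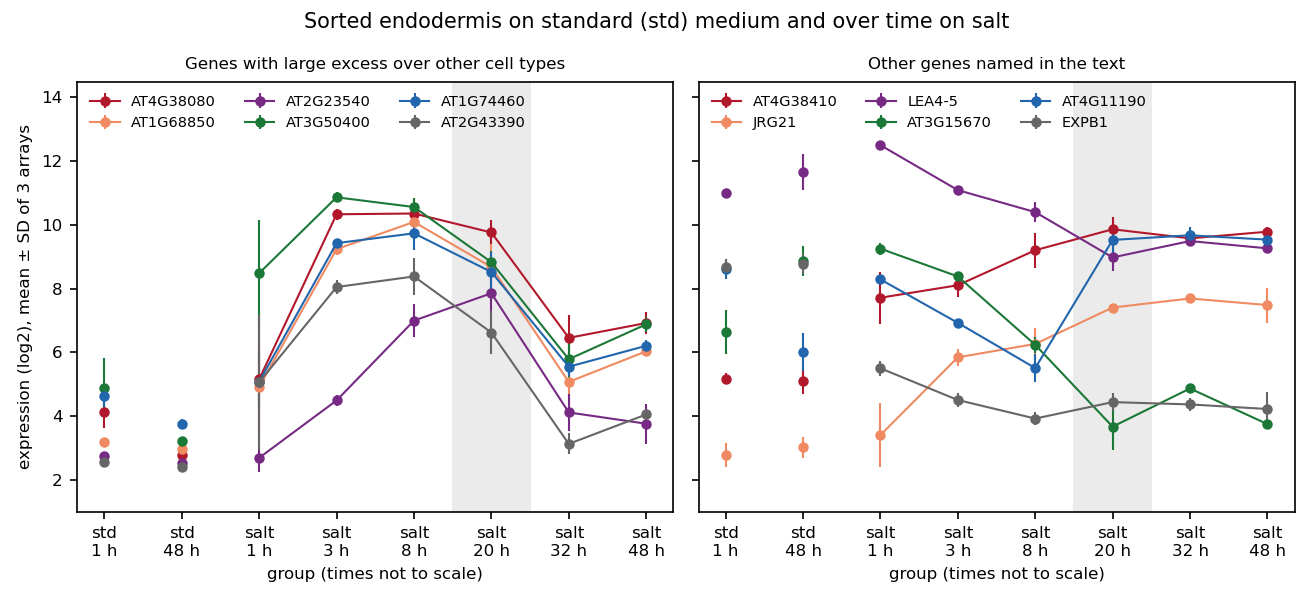
Expression (log2, mean ± SD of 3 arrays) in sorted endodermis on standard medium at 1 h and 48 h and at 6 times of salt, with 20 h shaded and times not to scale. Each of the genes on the left had a lower mean at 32 h than at 20 h, whereas AT4G38410 and JRG21 on the right had similar means at 20, 32 and 48 h.

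The standard arrays themselves changed with time on the medium. Between 48 h and 1 h on standard medium 167 genes differed in endodermis (2.29%), and for AT4G11190 the 48 h arrays stood at 6.67, 5.57 and 5.78, against 8.25, 8.79 and 8.77 at 1 h. Its change at 20 h of salt, 2.22 ± 0.25, is against the mean of those 2 levels. Among subtilases, SBT4.12 and ATSBT5.2 were called lower at 20 h (-1.61 ± 0.34 and -1.21 ± 0.31), but salt replicate 3 decided both: without it the changes were -0.72 (adjusted p = 0.0543 by limma) and -0.45 (adjusted p = 0.216). SBT4.12 stood at 9.54, 10.15 and 7.17 on the 3 salt arrays.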

How the data were processed

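Expression was deposited on a log2 scale after GCRMA, which subtracts a background predicted from each probe's sequence, normalizes between arrays and combines the probes of a set. The submitters' processing notes name GCRMA and Affymetrix Expression Console; versions are not given in the sources used here. The scale was checked on the values, and nothing further was applied. Arrays were grouped by their labels. Of 22810 probe sets, 64 are controls, 503 match several genes and the platform annotation used omits 8730; 13513 pair with 1 gene, and the brightest per gene was kept (158 left out), giving 13355 genes, of which 13333 matched the TAIR10.1 RefSeq table by Entrez ID or locus tag for current symbols. Roles given for locus tags without a symbol are background knowledge. A gene was tested where a group mean over the 32 groups reached 5 (7281 genes). Group means were fitted to 96 arrays with limma 3.58.1 in R 4.3.3 (64 residual degrees of freedom, eBayes); salt 20 h was contrasted with the mean of both standard groups, and p-values are two-sided with Benjamini-Hochberg adjustment. The procedure was tested on simulated data.

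The 67 gene lists (44 with a tested member), the comparison and the rule for named genes were chosen with earlier results of these data known, so list counts are descriptions without a list test. The rule took the 12 largest rises and 12 largest falls with no overlap between arrays, up to 4 called members of each list, tested endodermis markers, the 5 largest differences from other cell types in each direction, and the 4 largest differences from 8 h and to 32 h in each direction. Alternatives were other reference arrays, array scaling, filters, the arrays fitted, the variance model, probe set averaging, the replicate block and leaving out each array. The array number limits the precision, and no depth applies. Same-numbered arrays of the 3 endodermis groups correlated at -0.23 to 0.06 in their deviations from group means, and differently numbered ones at -0.21 to 0.27. With 3 arrays per group these values cannot show whether equal numbers share a culture or a sort. No genome or sequence table was used, so no sequences are shown.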

Additional observations from a re-analysis of the deposited data

Results flagged for a closer look

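The endodermis response at 20 h differed, by a test of the difference itself, from the mean response of epidermis, cortex and stele for 630 genes, with 326 differences positive and 304 negative. Among named genes with a difference of at least 4-fold, the positive ones were led by AT4G38080 (5.72), AT1G68850 (5.16), AT2G23540 (5.02), AT3G50400 (4.28) and AT1G74460 (4.18). They were followed by AT2G43390 (4.13), the peroxidase AT4G08780 (3.54), AT1G05450 (3.30), BGLU45 (2.59), the heat shock gene AT1G53540 (2.53), PRX52 (2.49), AT1G73620 (2.25) and AT2G48130 (2.18). For some of these the other types did not share a direction or size. AT4G08780 changed by 3.45 in stele, 0.80 in cortex and 0.19 in epidermis, and PRX52 by 4.13 in stele, 1.90 in cortex and -0.07 in epidermis. BGLU45 changed by 2.77 in cortex, 1.52 in stele and 0.13 in epidermis, beside 4.07 in endodermis. AT1G53540 changed by 2.81 in cortex, close to its 2.90 in endodermis, and by 0.89 in epidermis and -2.62 in stele, so its difference from the mean rests largely on the stele.

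On the negative side stood LEA4-5 (-3.02), AT4G27450 (-3.01), AT3G15670 (-2.91), TBL21 (-2.71), GSTU28 (-2.57), IAA30 (-2.40), UGT71C1 (-2.31) and the peroxidase AT5G15180 (-2.25). XTH21 (-2.24), WES1 (-2.21), EXPA7 (-2.16), AT3G59370 (-2.10) and the cortex marker AT1G62510 (-2.03) completed that side. The smaller differences of the barrier and marker lists were 1.40 for GSO1, 1.33 for AT1G61590, 1.19 for AT4G28100 and -1.23 for AT4G34600. Groups of 3 arrays are too small for a search for outlying arrays, so none was made.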

How the results depend on the processing

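The count of called genes in the main comparison lay between 1681 and 1857 when each of 9 arrays was left out, with 886 to 1029 rises and 788 to 875 falls. It was 867 (408 rises, 459 falls) where only genes with a group mean of 7 or more were tested, and 4801 (2640 and 2161) with no minimum change. The difference from other cell types ranged from 601 to 673 genes (310 to 395 positive, 278 to 346 negative) over 36 arrays left out, and was 2339 (1008 and 1331) with no minimum change. For 20 h against 8 h the count ranged from 178 to 320 (96 to 215 rises, 62 to 105 falls, highest without salt 20 h replicate 2). It was 67 (29 and 38) with the compared arrays alone, 105 (51 and 54) with the filter at 7, and 1077 (745 and 332) with no minimum change; median centring gave 80 rises and 130 falls. For 32 h against 20 h it ranged from 135 to 209 (24 to 34 rises, 104 to 181 falls, highest without salt 20 h replicate 3). It was 80 (17 and 63) with the filter at 7 and 512 (177 and 335) with no minimum change, and the compared arrays alone gave 17 rises. The cause of these shifts was not tested, beyond the fewer genes or arrays that a filter or a smaller fit leaves. With the replicate number as a block the 4 counts were 1776, 630, 209 and 147. The labels do not say whether equal numbers mark paired samples. Of 2709 values of named genes under alternatives 2661 kept direction and call, 47 lost the call, and GSO1, which was not called, changed sign to -0.0365 with median centring. Of 1936 counts of called list members under alternatives, 129 moved by more than 1.5 times. CML42 (adjusted p = 0.0896 by limma, 1 h standard alone) and AT3G49960 (adjusted p = 0.12, 48 h standard alone) were among those lost. The motif alternative was not run because no promoter table was given. Signal near background, with no detection calls, limits low genes.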
